A study of Gorilla gorilla with 12 samples.

Results

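The TGF-beta group examined here comprised 10 genes: the ligands TGFB1, TGFB2 and TGFB3, the receptors TGFBR1, TGFBR2 and TGFBR3, the signal transducers SMAD3 and SMAD7, and the latent TGF-beta binding proteins LTBP1 and LTBP2. Its members were all probe sets whose annotation gave 1 gene symbol from that list, which made 20 probe sets for 10 of the 8229 gene symbols on the array. A probe set is a group of short oligonucleotides that together give 1 intensity for a transcript. Levels were measured in cultured gorilla fibroblasts, the matrix-producing cells of connective tissue, with 1 array per culture. Of 12 arrays, 11 held total RNA of 11 lines grown and harvested in the same standard way, each from another normal animal. Lines labelled female 1 to 6 came from donors aged 19, 19, 35, 26, 30 and 2 years, and lines labelled male 1 to 5 from donors aged 19, 26, 24, 18 and 3 years. A further culture of male line 2, taken at 50% confluence, when cells covered part of the dish, gave the last array. No group carried a treatment or an altered gene, and the sources used here give neither the passage number nor the density of the standard harvest.

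TGF-beta ligands are secreted as inactive complexes with their own propeptide, and most are bound to a latent TGF-beta binding protein that anchors them in the matrix. Once released, a ligand binds the receptor kinase TGFBR2, which recruits and activates the kinase TGFBR1, and that kinase phosphorylates SMAD2 and SMAD3, which join SMAD4 and enter the nucleus. TGFBR3, betaglycan, is a co-receptor that presents ligand, and SMAD7 is an inhibitor that the pathway itself induces. In fibroblasts the pathway is known for raising matrix production and the contractile myofibroblast state, and in many epithelial cells for restraining division.

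Some facts bear on all values. The deposited intensities had a floor of 100, and each array had from 40.1% to 49.2% of its probe sets there, so 100 is an upper limit and not a level. The arrays were made for human transcripts, so base differences in gorilla RNA can lower a signal, and levels of different genes were not set against each other. In bulk RNA, fewer cells of a type and less RNA per cell cannot be told apart. All 10 fibroblast markers with a probe set were above the floor on all 12 arrays, among them COL1A1 (8943 to 24014) and THY1 (2433 to 5578). Of the epithelial markers KRT5, KRT14 and DSP were at the floor throughout, while CDH1 was above it on 5 of 12 arrays (to 199) and KRT15 (135) and EPCAM (102) on 1 each. Of endothelium VWF was at the floor throughout, while KDR was above it on 4 arrays (to 150), TEK on 3 (to 327), PECAM1 on 2 (to 164) and CDH5 on 1 (101). PTPRC and ITGAM of leukocytes were at the floor throughout, while CD14 of leukocytes was above the floor on 9 of 12 arrays and reached 1673. CD3E of T cells (140 to 252) and MLANA of melanocytes (106 to 247) were above it on all 12 arrays, PMEL of melanocytes reached 433, and MYOG of muscle was above it on 11 and reached 550. The summed markers ran from 440 to 2092 for leukocytes and from 306 to 841 for melanocytes, against 61553 to 102535 for fibroblasts, and their part in the results was not tested. RPS4Y1, a Y-linked gene, had 2595 in the line labelled female 3, against 100 to 115 in the other lines labelled female and 2662 to 4363 in the male lines. That array therefore went against its label, and whether the donor age of 35 years belongs to it was not tested. Some results that rest on it are given with and without it, and others only with it.

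Of the 20 probe sets, 16 passed a filter on mean level, and they covered 9 of the 10 genes. Both probe sets of TGFBR1, the type I receptor kinase, failed it. One stood above the floor in female 6 (121) and male 2 (148) alone, and the other in female 6 (147) and male 5 (113) alone. The level of this receptor was therefore not measurable in most lines. The dimmest probe set of TGFB1 and that of TGFB3 were at the floor on all 12 arrays and carried no information.

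**Figure D1:**
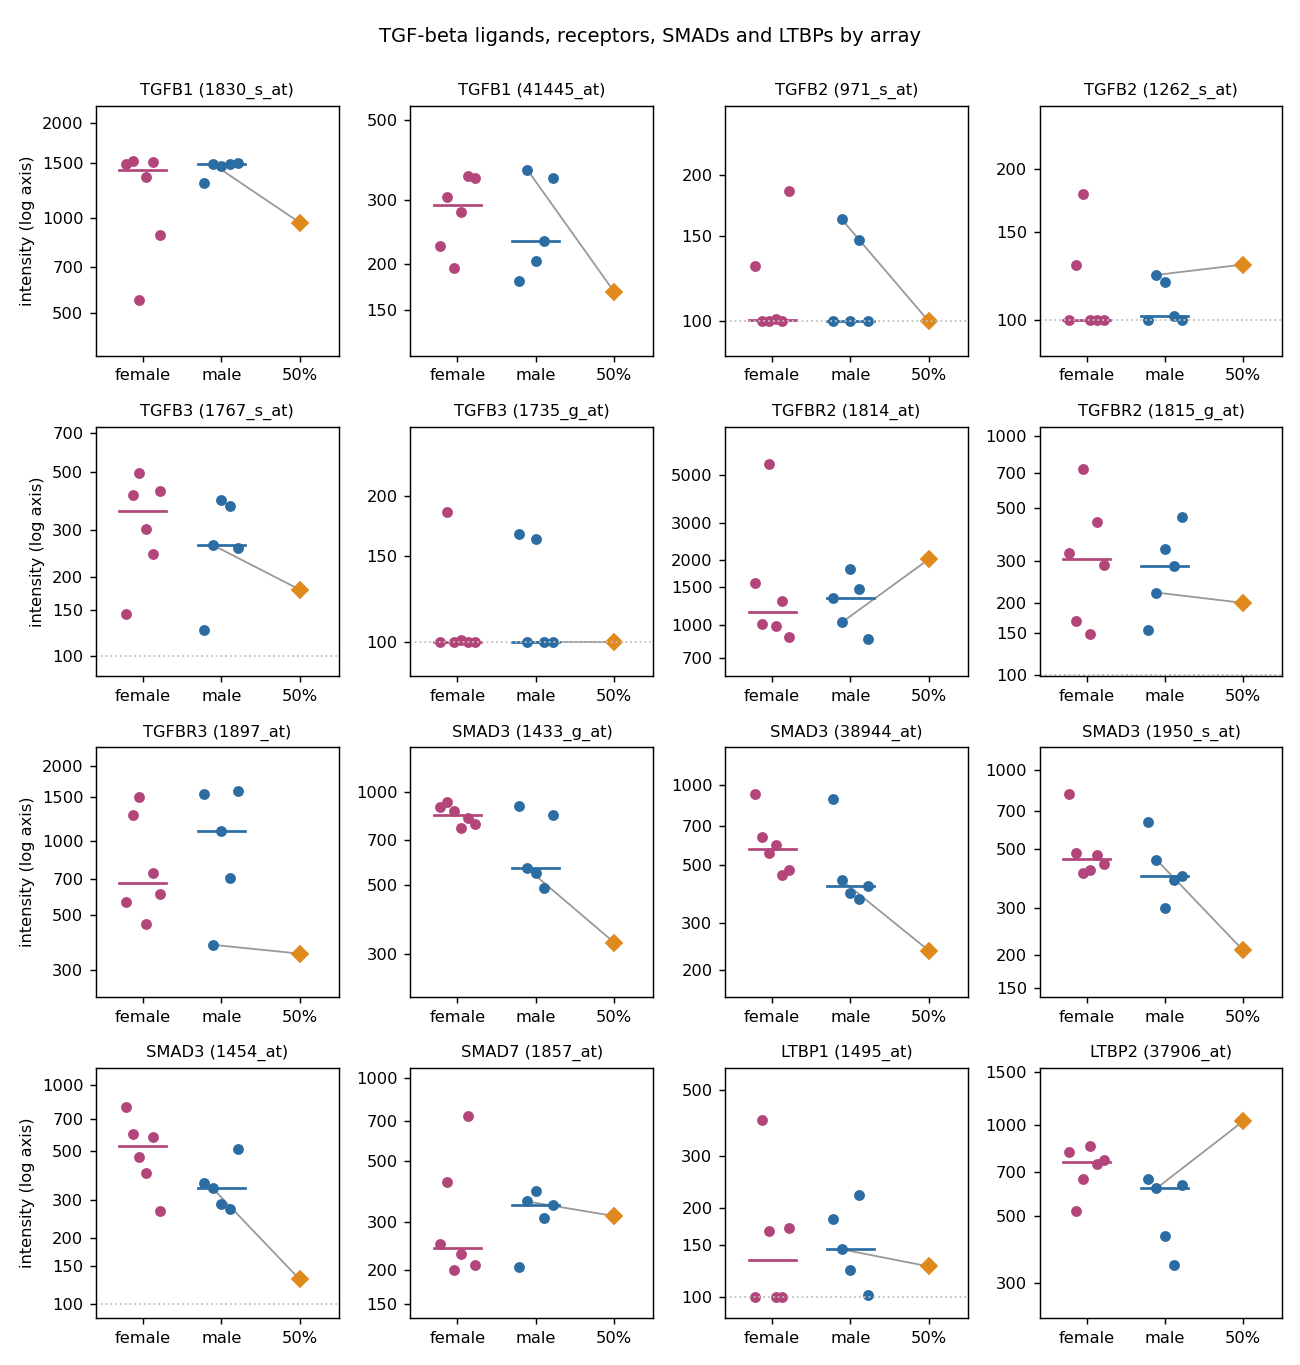
Intensity as deposited (log axis, dotted line at the floor of 100) of the 16 member probe sets that passed the filter, with 1 point per array: 6 lines labelled female, 5 labelled male, and the culture of male line 2 at 50% confluence (diamond, joined to its standard culture). Short bars are group medians. The line labelled female 3 stands alone at 5600 for TGFBR2 (1814_at) and lowest at 549 for TGFB1 (1830_s_at), and the diamond lies below all standard lines for the 4 SMAD3 probe sets.

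Among the ligands, TGFB1 was nearly level across most lines on its brighter probe set (1830_s_at) and low in 2 of them. Females 1 to 6 had intensities of 1485, 1515, 549, 1347, 1507 and 883, and males 1 to 5 had 1291, 1486, 1463, 1480 and 1494. The line labelled female 3 and female 6, the donor of 2 years, lay below all others, and the remaining 9 lines lay between 1291 and 1515. The second TGFB1 probe set (41445_at) ran from 180 in male 1 to 365 in male 2, with a median of 278, and had 195 in the line labelled female 3 but 345 in female 6. Both probe sets thus gave a low value in the line labelled female 3, and they disagreed on female 6. Their Pearson correlation over the 11 lines was 0.33, and -0.072 without the line labelled female 3, so outside that line they ranked the lines differently.

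TGFB3 varied more. On its informative probe set (1767_s_at) females 1 to 6 had 145, 408, 494, 303, 245 and 421, and males 1 to 5 had 126, 264, 390, 370 and 256. Female 1 and male 1, both from donors of 19 years, were lowest, and the line labelled female 3 was highest, a range of 3.92-fold. A dimmer TGFB3 probe set (1735_g_at) was at the floor in 7 of 11 lines and reached 185 in female 2, 167 in male 1 and 163 in male 3.

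TGFB2 stayed near the floor. Its probe set 971_s_at was at the floor in 6 of 11 lines and reached 185 in female 6 and 162 in male 2. Its probe set 1262_s_at was at the floor in 6 lines and reached 178 in the line labelled female 3. The brightest lines of the probe sets were different ones (correlation -0.388 over 11 lines), so no line can be called high in TGFB2 from these arrays.

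TGFBR2, the receptor kinase that binds the ligand first, had the widest range of the group. On 1814_at females 1 to 6 had 1566, 1010, 5600, 989, 1292 and 880, and males 1 to 5 had 1340, 1029, 1830, 1472 and 866. The line labelled female 3 lay far above the next line, male 3, and the donors of 2 and 3 years were the lowest. On the dimmer probe set 1815_g_at that line was again highest at 728, with male 5 next at 456 and female 4 lowest at 148. The correlation between both probe sets was 0.649 over 11 lines and 0.225 without the line labelled female 3. The high value of that line was therefore seen on both, and the order of the other lines was not.

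TGFBR3, the co-receptor betaglycan, was spread over a 4.20-fold range with no line apart. Females 1 to 6 had 565, 1271, 1495, 461, 738 and 606, and males 1 to 5 had 1545, 379, 1090, 705 and 1591. Male 5, male 1, the line labelled female 3, female 2 and male 3 had 1090 to 1591, and the other 6 lines had 379 to 738.

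SMAD3, the transducer that TGFBR1 phosphorylates, was measured by 4 probe sets. On 1433_g_at the females had 889, 926, 864, 764, 822 and 788, and males 1 to 5 had 900, 565, 545, 489 and 842. Males 2, 3 and 4 lay below every other line there. On 38944_at female 1 (926) and male 1 (886) were high, against 371 to 635 in the other lines, and the same pair led on 1950_s_at with 810 and 635 against 301 to 485. On 1454_at female 1 was highest at 795, and female 6, male 4 and male 3 were lowest with 265, 272 and 287. Pearson correlations between the 4 probe sets over the 11 lines ran from 0.576 to 0.889, all positive. The TGFBR2 pair lay within that range with the line labelled female 3 and below it without. On SMAD3 female 1 was first on 3 of them and male 3 and male 4 were among the 3 lowest on all 4.

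SMAD7, the inhibitory SMAD, was high in 1 line. Female 5 had 727, against 250, 419, 201, 230 and 209 in females 1, 2, 3, 4 and 6 and 205, 356, 389, 311 and 345 in males 1 to 5. Of the binding proteins, LTBP1 lay on the floor in 3 lines (females 1, 4 and 5) and between 102 and 221 elsewhere, except for female 2 with 397. LTBP2, a relative in the fibrillin microfibrils that does not itself bind the latent ligand, had 816, 521, 662, 853, 746 and 769 in females 1 to 6 and 661, 617, 428, 344 and 633 in males 1 to 5. Males 4 and 3 were its lowest lines, as they were for SMAD3 on 38944_at.

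Over the 16 probe sets the median SD of the log2 values across lines was 0.465, beside 0.406 over all 7541 probe sets tested, and 10 of the 16 exceeded that value. The SD was 0.75 for TGFBR2 (1814_at), 0.74 for TGFBR3 and 0.65 for TGFB3 (1767_s_at). Without the line labelled female 3 it was 0.37 for TGFBR2 and 0.24 for TGFB1 (1830_s_at), the latter against 0.46 with it. That line was the highest of 11 on 4 of the 16 probe sets and the lowest on 1. Female 1 was the highest on 4 as well.

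**Figure D2:**
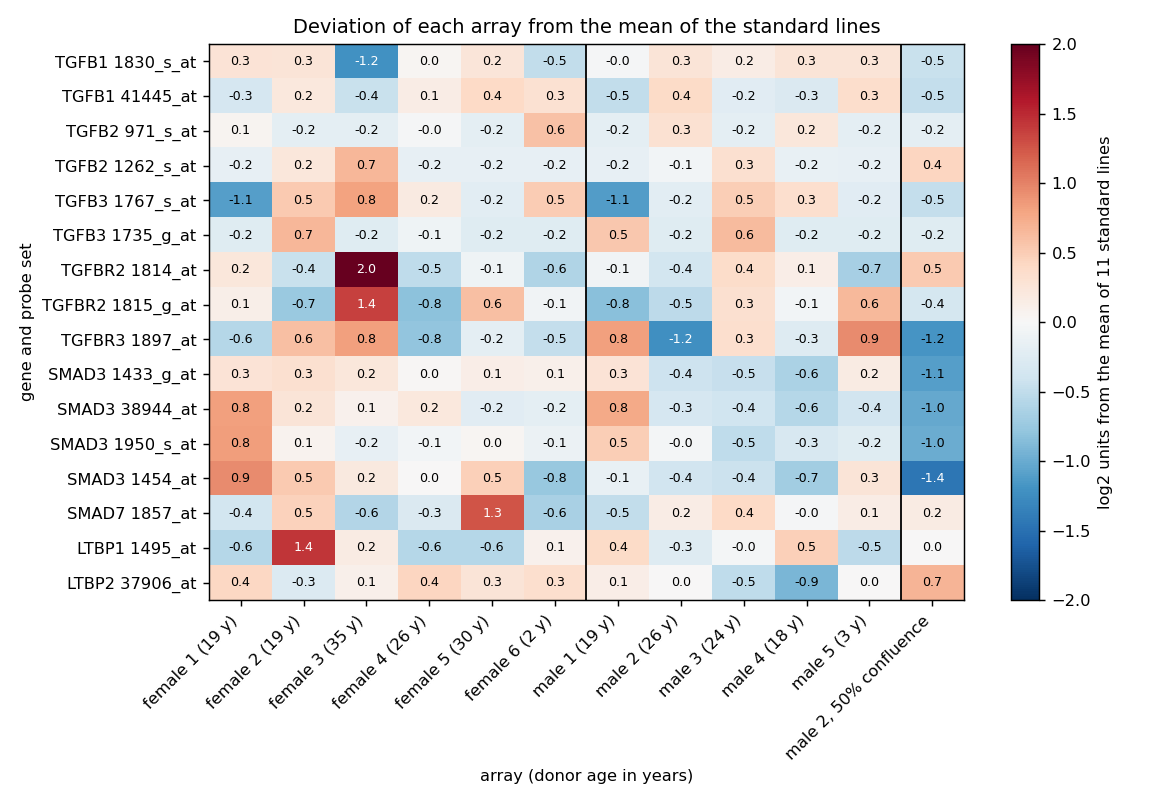
Deviation of each array from the mean of the 11 standard lines, in log2 units after quantile normalization, for the 16 member probe sets (rows) and 12 arrays (columns, with donor age); red is above and blue below that mean. In the line labelled female 3 TGFBR2 is at 2.01 and 1.36 and TGFB1 at -1.21 and -0.45, and in the 50% confluence array the 4 SMAD3 probe sets lie between -0.99 and -1.45.

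The first comparison the labels allow is between lines labelled male and female. SMAD3 and LTBP2 had the largest negative differences, male minus female, but no member passed the test, and values of both sexes overlapped on every probe set. On 1433_g_at of SMAD3 the female mean was 842.2 ± 61.9 (SD, n = 6) and the male mean 668.2 ± 188 (SD, n = 5), with a log2 difference of -0.39 (SE 0.20, limma adjusted p = 0.890). The other SMAD3 probe sets gave -0.34, -0.23 and -0.51, so all 4 had the same sign. They measure the same gene in the same lines and are not independent. LTBP2 had a female mean of 727.8 ± 120.5 (SD, n = 6) and a male mean of 536.6 ± 141.5 (SD, n = 5), a log2 difference of -0.47 (SE 0.22, limma adjusted p = 0.890). The remaining 11 probe sets had log2 differences from -0.27 to 0.33.

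limma called 0 of the 16 member probe sets between the sexes, against a background of 0% of 7541 (0 called, 397 at an unadjusted p under 0.05, of which 0 were members). Of the 16, 11 were negative, with a median of -0.13, beside a median of -0.0088 over all probe sets tested, of which 48.8% were positive. Without the line labelled female 3 the count was again 0. When lines were left out singly, the LTBP2 difference ran from -0.57 to -0.31 and that of SMAD3 on 1433_g_at from -0.51 to -0.29. The other SMAD3 probe sets depended on female 1, without which the difference was -0.079 on 1950_s_at, -0.21 on 38944_at and -0.36 on 1454_at.

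Other genes of the pathway were read from lists of its network and of its response genes. Of 43 network genes with a tested probe set besides the members, and of 35 response genes, none passed the test for sex. At an unadjusted p under 0.05 were 2 of 62 network probe sets and 2 of 55 response probe sets, beside 5.26% over all probe sets. SMAD4, the partner of SMAD3 in the nuclear complex, had the smallest p of the network, with intensities of 316 to 1133 and a difference of 0.68 (SE 0.25, limma adjusted p = 0.890). TRIM33, a ubiquitin ligase that acts on SMADs, had -0.47 and INHA, the inhibin alpha subunit, 0.77, the latter at the floor in 6 of 11 lines. Of the response genes, TGFBI, a matrix protein named for its induction by TGF-beta, had 630 to 3634 and a difference of -0.79 (SE 0.30, limma adjusted p = 0.890). MYC had 0.57 on 1973_s_at and VCAN, the proteoglycan versican, 0.54 on 31682_s_at.

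**Figure D3:**
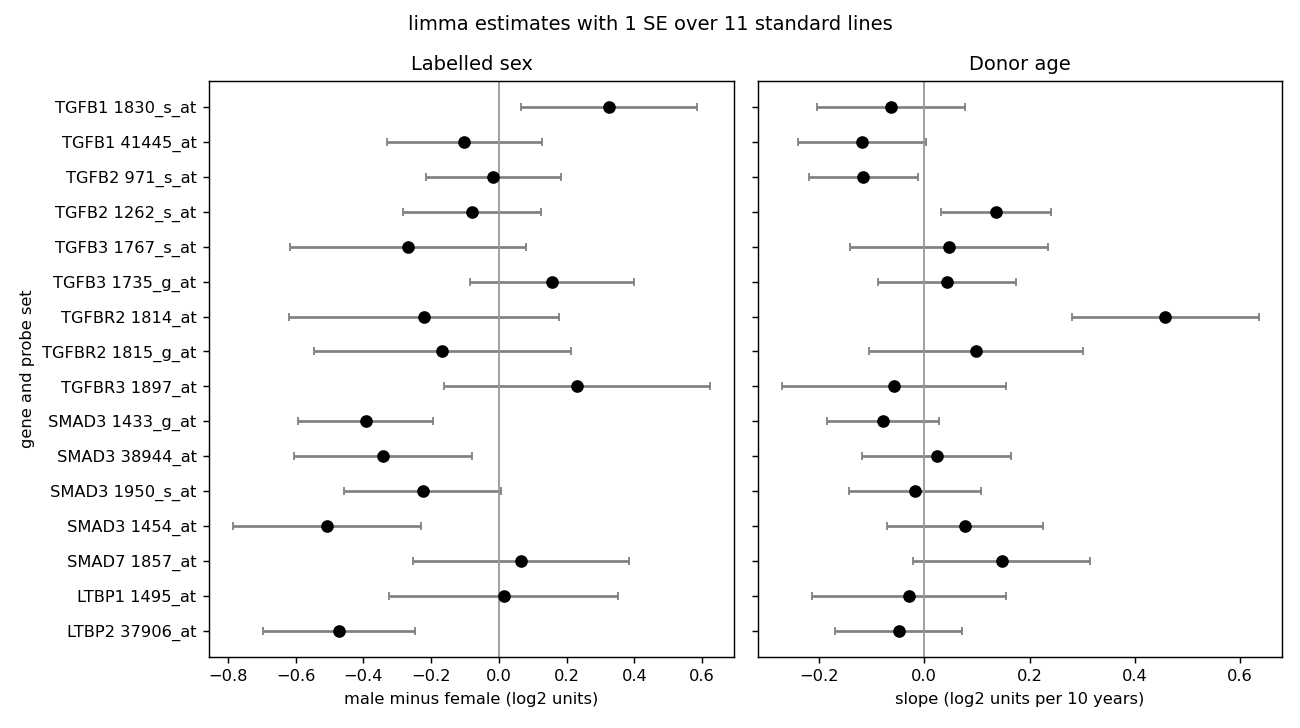
limma estimates (points) with 1 standard error (bars) for the 16 member probe sets over the 11 standard lines: male minus female difference in log2 units (left) and slope in log2 units per 10 years of donor age (right). Differences by sex lie between -0.51 and 0.33, and TGFBR2 (1814_at) has the largest slope with age, 0.46.

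Donor age was set against expression with the labelled sex as a covariate. TGFBR2 had the largest slope of the members, 0.46 log2 units per 10 years on 1814_at (SE 0.18, limma adjusted p = 0.850, unadjusted 0.0217), which missed the threshold. The donors of 2 and 3 years had 880 and 866, the 8 other lines apart from the one labelled female 3 had 989 to 1830, and that line, labelled 35 years, had 5600. Without it the slope was 0.20. The second TGFBR2 probe set had a slope of 0.098 (SE 0.20), with 289 and 456 in the youngest donors, and -0.14 without the line labelled female 3. The positive slope on 1814_at was thus not seen on the other probe set once that line was left out. Over the 9 adult lines, that line among them, the slopes were 0.77 and 0.84.

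The other 14 member probe sets had slopes from -0.12 to 0.15. limma called 0 of 16 members for age, against a background of 0% of 7541 (0 called, 410 at an unadjusted p under 0.05, 1 of them a member). The median slope was 0.0030 for the members and -0.0017 over all probe sets. No member passed a test of whether the slope differed between the sexes (limma interaction, 0 called of 7541, 0%, 282 at an unadjusted p under 0.05). TGFBR3 was the 1 member among those 282, with a difference in slope, male minus female, of -0.88 (SE 0.40, adjusted p = 0.999). That difference is given only with the line labelled female 3, the oldest by label, which had 1495. In the network list INHA (0.69), PPM1A (0.51) and SMAD5, a transducer of BMP signals (-0.57), came first in this test, and in the response list MYC (0.66), ELN, elastin (0.83), and VCAN (0.53), none of which passed.

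In the network list 0 probe sets passed for age and 6 of 62 had an unadjusted p under 0.05, beside 5.44% over all probe sets. FST, follistatin, which binds and blocks activins, had a slope of 0.46 (SE 0.12, limma adjusted p = 0.826) at intensities of 2716 to 9708. TGIF2, a repressor that binds SMADs, had -0.40, and BMP1, a protease that processes procollagen and frees latent ligand, -0.36. In the response list 0 passed, 5 of 55 had an unadjusted p under 0.05, and 13 of 55 slopes were positive, with a median of -0.10. Over all probe sets 5.44% had such a p and 49.5% of slopes were positive. The 55 probe sets cover 35 genes and are not independent. COL4A1 of basement membrane collagen had -1.09 (SE 0.24), CNN1, calponin, -0.78 and ACTA2, smooth muscle actin, -1.004, at limma adjusted p = 0.826 for each. Without female 6, the donor of 2 years, the slope was -0.34 for CNN1 and 0.29 for FST. Over the 9 adult lines it was 0.20 for FST, -0.12 for TGIF2, -0.17 for BMP1 and -0.081 for CNN1, but -1.01 for COL4A1 and -0.95 for ACTA2.

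A further question was whether the members moved with cell division or with the contractile state of the cultures. As measures, the mean log2 value of 22 cell cycle genes and that of 10 contractile genes were taken per line, none of which is a member. The cell cycle mean ran from 7.80 in the line labelled female 3 to 9.85 in male 1. SMAD7 had a slope of 0.42 per unit of it (SE 0.20, limma adjusted p = 0.357), TGFBR3 0.498 (SE 0.26, adjusted p = 0.401), TGFB1 on 1830_s_at 0.33 (SE 0.18, adjusted p = 0.415) and TGFB3 on 1735_g_at 0.33 (SE 0.16, adjusted p = 0.354). None of these passed. The other tested probe sets gave -0.024 for TGFB1 (41445_at) and -0.21 for TGFB3 (1767_s_at). The positive slope of either gene was thus not seen on both, and 1735_g_at was at the floor in 7 of 11 lines. Without the line labelled female 3 the slope was 0.89 for TGFBR3, the largest of the leave-one-out runs (smallest adjusted p = 0.0545). For TGFB1 on 1830_s_at it was then 0.078. That of SMAD7 was 0.27 without female 5, its brightest line, and 0.68 without male 1.

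limma called 0 of 16 members on the cell cycle mean, against a background of 2.36% of 7541 probe sets, which includes the genes that make up the mean (178 called, 1117 at an unadjusted p under 0.05, 0 of them members). In the network list 0 of 62 were called. GDF15, a distant ligand of the family induced by stress, had -0.95 (SE 0.29, limma adjusted p = 0.114) and GREM1, the BMP antagonist gremlin, -0.74 on 39474_s_at. THBS1, thrombospondin, which can activate latent TGF-beta, had -0.44 on 866_at, a probe set with intensities of 109 to 383. Without the line labelled female 3 these slopes were -0.65, -0.96 and -0.57. In the response list 0 of 55 were called. LOX, the collagen cross-linking enzyme, had 0.62 (SE 0.16, limma adjusted p = 0.0681), PLOD2, a collagen lysyl hydroxylase, -0.58, and ID1, an inhibitor of differentiation that BMP signals induce, 0.74.

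**Figure D4:**
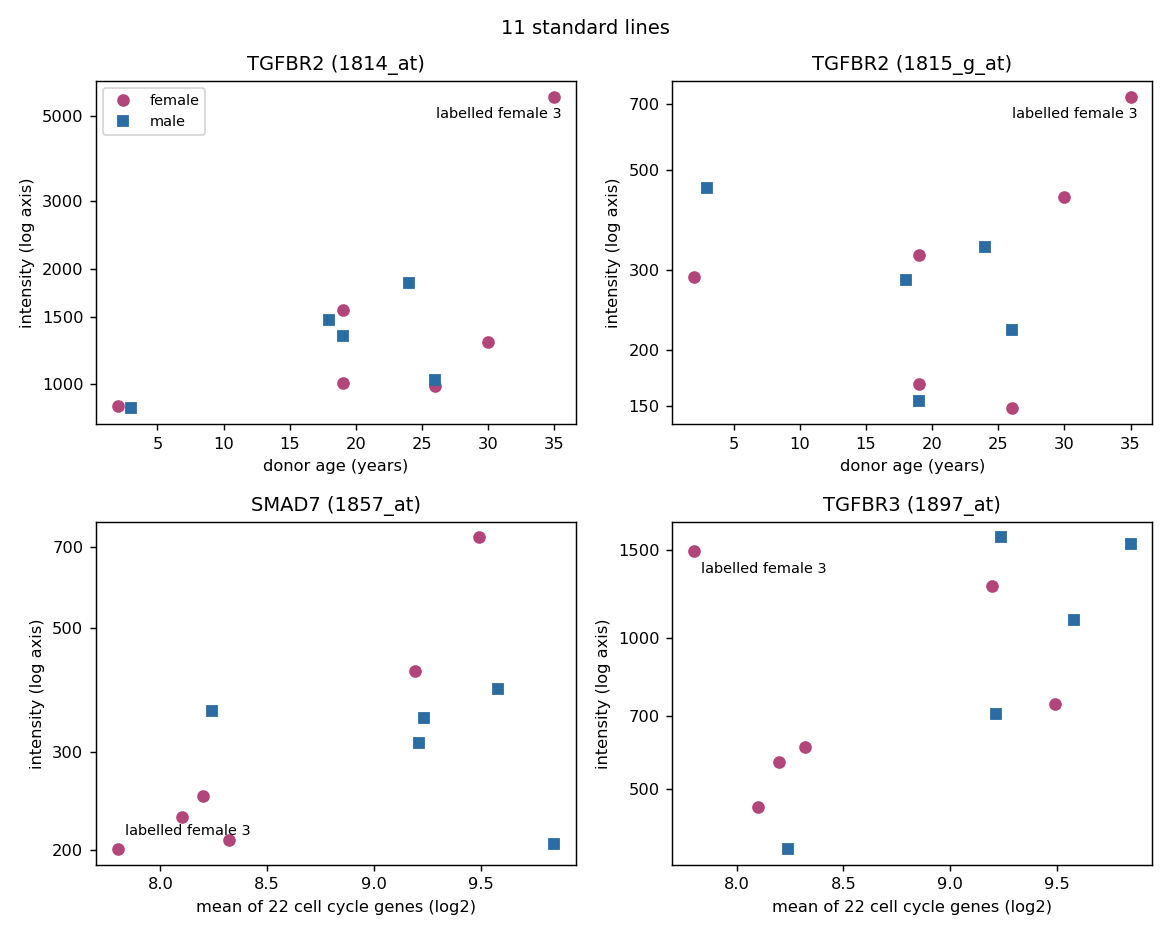
Intensity as deposited (log axis) over the 11 standard lines: both TGFBR2 probe sets against donor age in years (top) and SMAD7 and TGFBR3 against the mean log2 value of 22 cell cycle genes (bottom), with circles for lines labelled female and squares for male. On 1814_at the youngest donors lie lowest (880 and 866) and the line labelled female 3 far above the rest, while on 1815_g_at the youngest donors lie at 289 and 456.

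The contractile mean ran from 10.3 in male 3 to 12.1 in female 6. Against it, TGFBR2 on 1814_at had a slope of -0.85 (SE 0.33, limma adjusted p = 0.350) and TGFB1 on 41445_at one of 0.45 (SE 0.20, adjusted p = 0.414). The brighter TGFB1 probe set had 0.0092 (SE 0.27) and the dimmer TGFBR2 probe set -0.25 (SE 0.37), so probe sets of a gene did not give the same slope. The TGFBR2 slope was -0.57 without the line labelled female 3. limma called 0 of 16 members, against a background of 0.119% (9 of 7541, with 844 at an unadjusted p under 0.05, 2 of them members).

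Without the genes that are part of the contractile mean, 0 of 62 network probe sets and 0 of 49 response probe sets were called. FSTL3, a follistatin relative, had 0.69 (SE 0.19, limma adjusted p = 0.196), FST -0.84 and TGIF2 0.77. PLOD2 had 0.92 (SE 0.25, limma adjusted p = 0.196), VCAN 0.57 on 38112_g_at and FN1, fibronectin, 0.66 on 31719_at. The labels give no batch, so none could be set beside these relations, which describe cultures that differ in many genes at the same time.

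The culture of male line 2 at 50% confluence was set against that line's standard culture, with 1 array each and no replicate, so no p-value is given. SMAD3 was lower at 50% confluence on all 4 probe sets. On 1454_at it had 338 in standard culture and 130 at 50% confluence, on 1950_s_at 458 and 208, on 38944_at 437 and 237, and on 1433_g_at 565 and 326. After quantile normalization these were 2.09-fold, 1.93-fold, 1.62-fold and 1.61-fold lower. Each of the 4 values at 50% confluence lay below all 11 standard lines, whose lowest values were 265, 301, 371 and 489, and this was so with all 3 scalings of the arrays. With each array centred on its median the log2 differences were -0.88, -0.64, -0.39 and -0.30, against -1.06, -0.95, -0.69 and -0.69 with quantile normalization. Median centring moved the median difference of all tested probe sets from 0 to 0.439, and relative to that shift the SMAD3 differences were no smaller.

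The ligand TGFB1 was lower as well, with 1486 and 968 on 1830_s_at (1.63-fold) and 365 and 168 on 41445_at (1.81-fold), values that stayed within the range of the standard lines after normalization. With median centring the first of these differences was -0.12 in log2 units, so it depended on the scaling. TGFB3 had 264 and 179 on 1767_s_at, a log2 difference of -0.27. TGFBR2 was higher on 1814_at, with 1029 and 2025 (1.85-fold), a level that only the line labelled female 3 exceeded, but not on 1815_g_at, with 221 and 200, where the sign depended on the scaling (0.17 after quantile normalization, -0.14 as deposited). LTBP2 was higher, with 617 and 1032 (1.59-fold), above all 11 standard lines under each scaling. SMAD7 had 356 and 315, TGFBR3 379 and 349, and LTBP1 145 and 127, differences of 0.0070, 0.037 and 0.27 in log2 units after normalization and of -0.18, -0.12 and -0.19 as deposited, so their sign turned with the scaling. TGFB2 on 971_s_at had 162 and the floor of 100.

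Of the 16 member probe sets, 1 was lower by 2-fold or more, against a background of 7.24% of 7541, and 0 were higher by as much, against 6.96%. Below all 11 standard lines were 4 of 16, all of SMAD3, against 4.76%, and above them 1 of 16, against 6.59%. The 4 probe sets measure the same gene on the same arrays and are not independent, so their share cannot be weighed against that background. Without scaling 3 member probe sets differed by 2-fold or more (background 16.3%), SMAD3 on 1454_at and 1950_s_at and TGFB1 on 41445_at, all lower. With median centring 2 did (20.3%), TGFBR2 on 1814_at (log2 difference 1.47) and LTBP2 (1.24), both higher. With a floor of 200 none did (7.11%). As deposited, TGFB1 on 41445_at and TGFBR3 lay below all standard lines too, which made 6 of 16, against 6.18% of all probe sets on that scale. The arrays of the pair differed in signal too, with 40.1% of probe sets at the floor in the standard and 49.2% at 50% confluence. The summed intensity of the 10 fibroblast markers was 100294 in the standard culture and 61553 at 50% confluence, the lowest of 12 arrays, and the mean of the cell cycle genes was 8.24 and 9.45. The part of these in the differences was not tested.

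**Figure D5:**
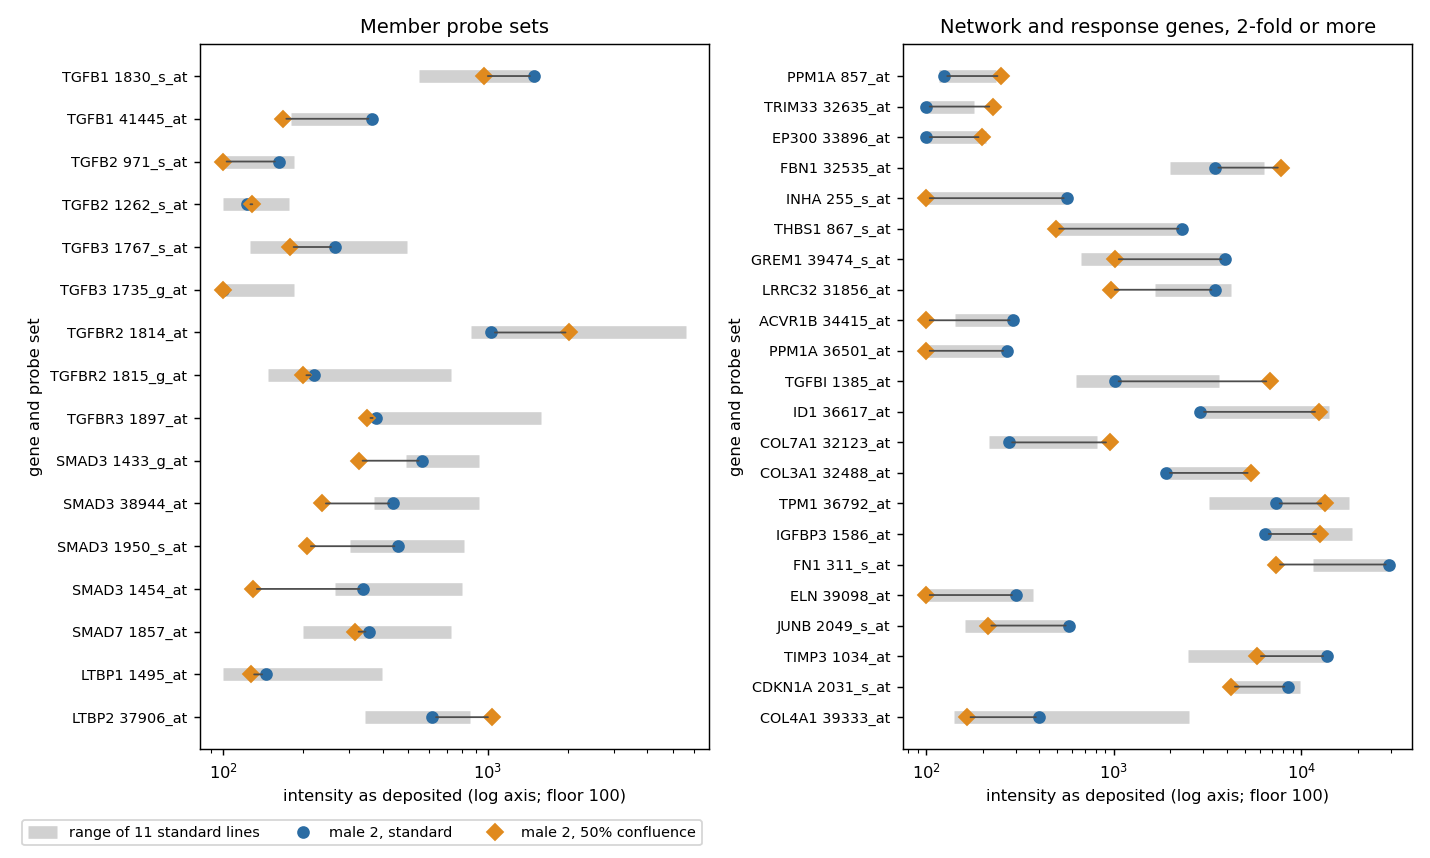
Intensity as deposited (log axis, floor 100) of male line 2 in standard culture (circle) and at 50% confluence (diamond), with the range of the 11 standard lines as a grey bar, for the 16 member probe sets (left) and for network and response genes that differed by 2-fold or more after normalization (right). The 4 SMAD3 diamonds lie left of their bars, LTBP2 (1032) lies right of its bar, and TGFBI moves from 1016 to 6800.

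Response genes of the pathway differed in both directions at 50% confluence. TGFBI had 1016 in the standard culture and 6800 at 50% confluence (6.36-fold higher), beyond the 3634 of the highest standard line. COL7A1, the collagen of anchoring fibrils, had 275 and 951 (3.61-fold), also beyond all standard lines. ID1 had 2897 and 12362 (5.21-fold) and COL3A1, collagen III, 1906 and 5409 (2.72-fold), in both cases starting from the lowest value of the 11 lines. IGFBP3, an IGF binding protein, had 6410, also the lowest of the 11 lines, and 12519. TPM1, a tropomyosin, was 2.49-fold higher on 36792_at, 1.42-fold higher on 36791_g_at and 1.12-fold lower on 36790_at. As deposited these were 1.82-fold and 1.13-fold higher and 1.35-fold lower.

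Fibronectin, FN1, had 29418 and 7365 on 311_s_at (2.97-fold lower), below all standard lines, and was 2.12-fold lower on 31719_at. On 31720_s_at it had 32691 and 13447, 1.25-fold lower after normalization but 2.43-fold as deposited. Elastin, ELN, had 767 and 315 on 31621_s_at (2.32-fold lower). The metalloproteinase inhibitor TIMP3 had 13657 and 5823 on 1034_at (2.09-fold lower) and 14779 and 8514 on 1035_g_at (1.5-fold lower). The cell cycle inhibitor CDKN1A had 8479 and 4233 (2.08-fold lower) and COL4A1 402 and 165 (2.03-fold lower). With median centring the log2 differences were -0.735 for TIMP3 on 1034_at, -0.507 for CDKN1A and -0.79 for COL4A1, each short of 2-fold. JUNB, an early transcription factor, was 2.46-fold lower on one probe set (580 and 213), and on another it had 245 and 214. The standard values of FN1 on each probe set, of TIMP3 (13657) and of JUNB (580) were the highest of the 11 lines, and those of ELN, CDKN1A and COL4A1 were not. Of 55 response probe sets tested, 10 lay higher and 8 lower by at least 2-fold, beside 6.96% and 7.24% over all probe sets. The median difference was 0.012 (-0.11 as deposited and 0.39 with median centring), beside 0 over all probe sets (-0.056 and 0.44).

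In the network, LRRC32, which docks latent TGF-beta at the cell surface, had 3462 and 968 (3.88-fold lower), below all standard lines. THBS1 had 2310 and 490 on 867_s_at (4.65-fold lower) and was lower on its other probe sets as well, by 2.08-fold and 1.84-fold. GREM1 had 3909 and 1018 on 39474_s_at (4.12-fold lower), while its dim probe set 39840_at had 119 and 136. INHA had 566 and the floor of 100, at least 5.66-fold lower as deposited and by a log2 difference of -2.49 after normalization and -2.01 with median centring. FBN1, fibrillin, to whose microfibrils the binding proteins attach, had 3455 and 7832 (2.14-fold higher), above all standard lines as LTBP2 was. ACVR1B, an activin receptor kinase, had 291 and the floor of 100 on 34415_at, at least 2.91-fold lower as deposited (log2 difference -1.44 after normalization and -1.05 with median centring), while on the brighter 36451_at it had 605 and 792. PPM1A, a phosphatase, was higher on one probe set (124 and 251) and lower on another (269 and 100), so no direction can be given. TRIM33 had 100 and 227 on 32635_at but 231 and 232 on 35187_at, and EP300, a co-activator of SMADs, 100 and 199, near the floor. The standard values of INHA (566), GREM1 (3909) and THBS1 on 867_s_at (2310) were the highest of the 11 lines. So were those of ACVR1B (291) and of PPM1A (269) on the probe sets that were lower. Those of LRRC32 and of the other THBS1 probe sets were not. The lower values of GREM1 (1018) and INHA (100) stayed within the range of the lines, while those of LRRC32 and ACVR1B lay below it. Of 62 network probe sets tested, 4 lay higher and 11 lower by at least 2-fold, beside 6.96% and 7.24% over all probe sets. The median difference was -0.064 (-0.23 as deposited and 0.26 with median centring).

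The genes whose pattern over the 11 standard lines was most like that of a member were searched among 6698 tested probe sets with 1 symbol, by Pearson correlation, as a description. For TGFB3 (1767_s_at) they were ZDHHC18 (0.93) and PPP1R3C (0.895), for TGFBR3 PPP3CB (0.898) and GPR107 (0.889), and for SMAD3 (1433_g_at) CARD10 (0.897) and CYTH1 (0.892). For TGFB1 (1830_s_at) they were DCAF7 (0.901) and ERCC2 (0.865), and for LTBP2 PCBP4 (0.889) and MICAL3 (0.884). For TGFB2 (971_s_at), near its floor, they were KXD1 (0.916) and USP19 (0.878). For TGFBR2 (1814_at) they were GBE1 (0.925) and TNFAIP6 (0.92), but 0.70 and 0.789 without the line labelled female 3. LTBP1, at the floor in 3 lines, was most like SPP1, osteopontin (0.929), which ran from the floor to 1328, and STAG2 (0.862). SPP1 was at the floor in 4 of the 11 lines and STAG2 in 3. SMAD7 was most like MYO10 (0.871) and INPP4A (0.844). All points come from the same 11 arrays, and no test was run on these correlations.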

How the data were processed

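The authors deposited linear intensities as whole numbers for 12625 probe sets on each of 12 arrays. Summarising software, scaling and the rule behind the floor were not given in the sources used here, and 100 was the lowest deposited intensity. Groups came from the labels' descriptions and titles. Replicate numbers were given in accession order and pair nothing, and whether lines differ in culture history is not stated, so p-values reflect only how far these lines, each of another animal, differ. Precision is limited by the number of arrays.

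The members and lists were chosen with earlier results of these data known. Intensities were taken to log2 and, since array medians differed by 0.495 (limit 0.1), quantile normalized. Of all probe sets, the 67 controls were left out of tests, and probe sets entered the tests where the mean over the 11 standard arrays exceeded the 40th percentile, leaving 7541. limma 3.58.1 in R 4.3.3 (lmFit, eBayes, Benjamini-Hochberg over all tested, threshold 0.05, two-sided) gave all tests; the steps were checked on simulated data. The probe annotation names 1 symbol for 10961 probe sets. A gene's leading probe set is the one with the highest mean. Named besides members were, per list and test, the 3 genes with the smallest p; for confluence up to 6 genes per list and direction past 2-fold; and 2 genes most like each member. In the tests each such gene is given by its probe set with the smallest p, which can differ between tests, and not by its other probe sets. For the confluence pair, other probe sets of the named genes were added after their values were seen. Some list entries had no probe set with 1 symbol. Alternatives covered scaling, filter, a floor of 200, array weights, covariates and lines left out. No sequences or coordinates are given.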

Additional observations from a re-analysis of the deposited data

Results flagged for a closer look

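On 5 occasions a value stood apart from its group by the ratio of its gap to the group's range, on log2 intensities, among 32 sets of lines examined (16 probe sets in both sexes). The limit used is one that about 1 in 20 independent sets of normal values would pass. Probe sets of the same gene are not independent and groups at the floor are not normal, so the count cannot be set against that rate. TGFBR2 on 1814_at had 5600 in the line labelled female 3, against 880 to 1566 in the other females. TGFB1 on 1830_s_at had 1291 in male 1, against 1463 to 1494 in the other males, a group so narrow that a small gap stands out. SMAD3 had 886 on 38944_at in male 1, against 371 to 437 in the other males, and 810 on 1950_s_at in female 1, against 408 to 485 in the other females. TGFB3 on 1735_g_at had 185 in female 2, against 100 to 101 in the others, which are at or next to the floor. No member's slope with age differed between the sexes at the threshold.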

How the results depend on the processing

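No member passed a test for sex, age, the cell cycle mean or the contractile mean under any alternative run. At 50% confluence 1 member probe set, of SMAD3, was lower by 2-fold or more, against 3 lower on values as deposited. With median centring 2 other probe sets, of TGFBR2 and LTBP2, were higher by as much and none was lower. With a floor of 200 the count was 0, and the cause was not tested. Of 898 values of single genes under other settings, 869 stayed within the limit set for their kind and 24 moved beyond it, all of the latter in the confluence pair or in the spread between lines. Of the 114 values of the confluence pair, 21 crossed 2-fold in either direction and 5 turned sign, among them SMAD7, TGFBR3, LTBP1 and the dimmer TGFBR2 probe set as deposited. In the tests the sign turned 2 times, both for the age slope of TGFBR2 on 1815_g_at, which was -0.026 per doubling with log2 of age and, with single lines left out, lay between -0.14 (no female 3) and 0.33. LOX passed on the cell cycle mean on values as deposited (0.68, adjusted p = 0.0363) and with median centring (0.69, adjusted p = 0.0161), and ID1 without male 1 (1.10, adjusted p = 0.0306), all by limma. Comparisons between lines had no pairs, since each line came from another animal. The only pair the labels give, the cultures of male line 2, had 1 array each and allowed no paired test. Signals near the floor of 100 limit TGFB2, TGFBR1, LTBP1 and the dimmer TGFB3 probe sets. As deposited, a value at the floor can understate a change, while normalization can widen or turn a small difference near it. TGFB2 on 1262_s_at had 123 and 129 in the confluence pair, a log2 difference of 0.069 as deposited and 0.49 after normalization.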
